A study of Mus musculus with 24 samples.

Results

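Osr1 and Osr2 encode the odd-skipped related zinc-finger transcription factors, and the histone marks around both genes were examined in wild-type (WT) and Shh-/- mouse forelimb buds, which have or lack Sonic hedgehog (Shh) signalling, and in NIH3T3 fibroblasts with and without a Hedgehog agonist. Members were the peaks of all 7 deposited peak lists that overlapped the mm10 body of either gene or the 100 kb on either side of it. Of 368383 deposited peaks, 137 lay off the main chromosomes and were not used. Of the other 368246, 230 were members, 119 at Osr1 and 111 at Osr2. All 230 were kept, with no filter on rank or height. Both genes were chosen by measured values of these lists, the peak counts: limb H3K27ac peaks at Osr2 were called in WT limbs and mostly not in Shh-/- limbs, while in NIH3T3 cells the control calls outnumbered the agonist calls. Those counts are therefore given as a description and support nothing.

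Limb chromatin came from whole forelimb buds of E10.5 embryos on a Swiss Webster background, staged at 32 to 35 somites, with about 400000 cells in each immunoprecipitation. Each limb library pooled the buds of several embryos. The Shh-/- embryos carried the null allele Shh tm1amc on both chromosomes in every cell, and the WT controls, as the methods describe them, mixed WT with heterozygous embryos of matched somite number. NIH3T3 is an established mouse embryonic fibroblast line. Its cells, 1000000 in each immunoprecipitation, were kept in low serum for 48 h with either 400 nM purmorphamine, a small molecule that activates Smoothened and so the Hedgehog pathway, or the DMSO vehicle. The labels of both NIH3T3 groups also name LIF, which the methods do not explain. H3K27ac was measured in WT limbs, Shh-/- limbs, DMSO cells and purmorphamine cells, H3K4me2 in WT and Shh-/- limbs, and H3K27me3 in Shh-/- limbs, the only genotype analysed here for that mark. H3K27ac was precipitated with one antibody in limb and with another in NIH3T3 cells, so levels were not compared between them.

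The odd-skipped related factors take part in patterning mesenchyme. Osr1 is an early regulator of the intermediate mesoderm and kidney, and Osr2 is known for its part in palate and tooth development; both act in the limb, in connective tissue and in the forming joints. In the limb bud, Shh is secreted from the posterior margin and keeps the GLI transcription factors from acting as repressors. H3K27ac is a mark of active regulatory DNA, H3K4me2 lies over both poised and active elements, and H3K27me3 is laid down by the Polycomb complex over silenced developmental genes.

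Each of the 7 lists was called once from 2 replicate libraries entered together, so the lists hold no spread between replicates. No p-value can be computed from the lists, and the comparisons below are counts of calls with 95% Wilson intervals. The paper itself tested reads over merged peaks between conditions, with the replicates kept apart. By that measure it reports that the great majority of H3K27ac regions were found in WT and Shh-/- limbs alike. Those tests were not used here, and a peak without overlap below is not a tested loss. The intervals cover counting error only, and neighbouring peaks often belong to one region and are not independent. The lists held from 20846 peaks for H3K27me3 to 91023 for DMSO H3K27ac, and the depth of single libraries cannot be read from them. Rank is given as a percentage of the list, and a low percentage is a strong peak. A missing call is not the absence of the mark. All 5 markers of forelimb mesenchyme had an H3K27ac peak within 1 kb of their start in both limb genotypes. All 5 fibroblast markers had one in both NIH3T3 lists. These 2 sets did not separate the systems: 4 of 5 mesenchyme markers also had one in both NIH3T3 lists. Likewise 2 of 5 fibroblast markers had one in both limb genotypes. In both NIH3T3 lists 1 of 2 hindlimb markers had a peak. None of the 5 limb ectoderm, 3 erythroid or 2 hindlimb markers had a limb H3K27ac peak. In each limb genotype 1 of 4 endothelial markers had one, and 0 of 4 muscle precursor markers in WT and 1 of 4 in Shh-/- limbs did. In whole limb buds, fewer cells with a mark and less of the mark in each cell cannot be told apart.

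Osr2 lies at chr15:35296098-35303305 on the plus strand of mm10 (7208 bp), and its window also takes in the long noncoding genes Gm33497, BC048602 and Gm48960 and the start of Vps13b, 75.1 kb downstream. Vps13b encodes a large protein of Golgi membranes. Osr1 lies at chr12:9570116-9581500, also on the plus strand (11385 bp), and is the only protein-coding gene of its window. The annotated Osr1 gene begins 4.3 kb upstream of the RefSeq start at position 9574442, and distances are given from that RefSeq start. At the window edges, the leftmost Osr1 member, a DMSO peak, began 1566 bp outside the edge it overlapped, and the next DMSO peaks lay 2467 bp outside on the left and 2750 bp outside on the right. At Osr2 the outermost member lay 9652 bp inside the left edge and the nearest peak outside lay 12945 bp beyond the right edge.

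The sequences under 6 regions that the results below turn on are printed 5′ to 3′ on the plus strand of mm10. The first 3 lay under WT limb H3K27ac peaks at Osr2 that had no overlapping Shh-/- peak; the +63.7 kb peak is 700 bp long and its central 300 bp are shown. Capitals in the first-intron sequence mark the match, with 1 mismatch, to the GLI motif GACCACCCA on the minus strand.

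Osr2 -19.2 kb: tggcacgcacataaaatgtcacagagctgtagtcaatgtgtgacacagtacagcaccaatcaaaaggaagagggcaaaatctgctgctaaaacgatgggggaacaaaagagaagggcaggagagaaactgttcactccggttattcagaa
Osr2 +63.7 kb: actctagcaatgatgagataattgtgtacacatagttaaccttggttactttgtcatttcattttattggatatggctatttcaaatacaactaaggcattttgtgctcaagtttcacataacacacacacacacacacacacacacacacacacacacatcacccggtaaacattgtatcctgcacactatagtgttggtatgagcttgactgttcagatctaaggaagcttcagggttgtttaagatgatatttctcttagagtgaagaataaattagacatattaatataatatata
Osr2 first intron: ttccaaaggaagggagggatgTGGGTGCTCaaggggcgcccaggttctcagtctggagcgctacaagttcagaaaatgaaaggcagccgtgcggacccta

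Their coordinates are chr15:35276900-35277049, chr15:35359950-35360249 and chr15:35296500-35296599. The central part of the +63.7 kb peak was 34.3% G and C and held an uninterrupted dinucleotide repeat of 38 bases. The next 2 sequences are from the distal limb H3K27ac regions called in both genotypes, chr15:35313500-35313799 and chr12:9612550-9612849, and their 150 capitals are the bases under both the WT and the Shh-/- peak.

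Osr2 +17.4 kb: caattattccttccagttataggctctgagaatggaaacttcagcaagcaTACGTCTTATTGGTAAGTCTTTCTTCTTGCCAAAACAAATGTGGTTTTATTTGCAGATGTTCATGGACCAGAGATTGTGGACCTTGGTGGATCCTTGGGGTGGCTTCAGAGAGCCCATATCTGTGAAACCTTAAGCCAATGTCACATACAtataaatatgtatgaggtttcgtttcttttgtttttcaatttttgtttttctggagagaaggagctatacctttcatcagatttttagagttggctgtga
Osr1 +38.1 kb: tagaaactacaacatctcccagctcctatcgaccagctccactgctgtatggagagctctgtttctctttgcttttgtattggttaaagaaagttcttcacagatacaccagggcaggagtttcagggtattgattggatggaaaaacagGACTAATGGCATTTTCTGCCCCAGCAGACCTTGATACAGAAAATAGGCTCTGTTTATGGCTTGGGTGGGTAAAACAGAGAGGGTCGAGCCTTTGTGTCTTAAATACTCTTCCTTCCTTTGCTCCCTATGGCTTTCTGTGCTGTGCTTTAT

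The last sequence, chr12:9571150-9571349, lay under an H3K27me3 peak inside the annotated Osr1 gene, upstream of its RefSeq start. It held the one exact GLI match under any of the 230 peaks, in capitals.

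Osr1 -3.3 kb: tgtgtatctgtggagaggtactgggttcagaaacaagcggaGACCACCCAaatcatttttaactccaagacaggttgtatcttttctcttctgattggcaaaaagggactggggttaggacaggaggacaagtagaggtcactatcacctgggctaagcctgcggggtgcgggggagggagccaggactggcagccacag

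At Osr2 the WT limb H3K27ac list held 15 peaks that covered 4100 bp, and the Shh-/- list held 5 peaks that covered 1500 bp. The base pairs covered were 2.73 times as many in WT, against 1.18 times over the whole lists. Merging peaks within 1 kb left 8 domains in WT and 3 in Shh-/- limbs. Of the 15 WT peaks, 13 (86.7%, 95% interval 62.1 to 96.3) overlapped no Shh-/- peak, where 48.5% of all peaks of the WT list did not. Of the 5 Shh-/- peaks, 3 (60%, interval 23.1 to 88.2) overlapped no WT peak, against 38.4% of their list. Among 18636 protein-coding loci with a limb H3K27ac peak in windows of the same flank, 53.1% had more WT than Shh-/- peaks, and 0.961% had an excess of at least 10 WT peaks as at Osr2.

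**Figure D1:**
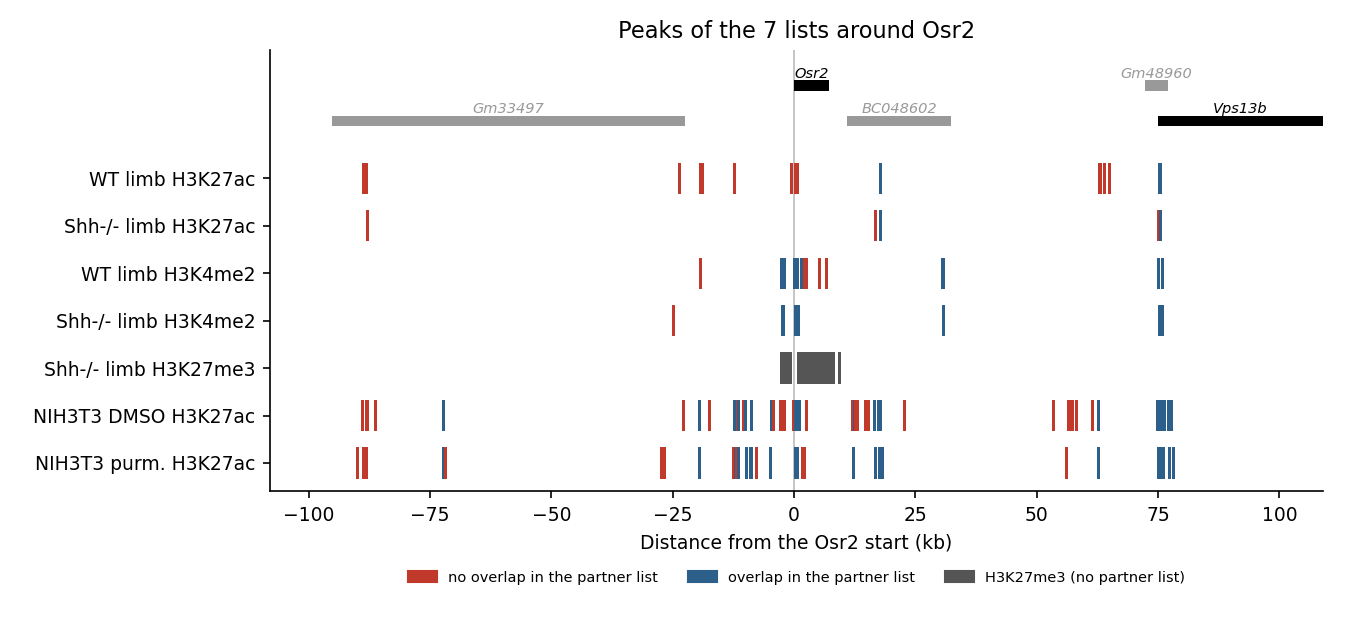
Peaks of the 7 lists (rows) against the distance from the Osr2 start in kb. Red marks have no overlapping peak in the partner list (WT against Shh-/-, DMSO against purmorphamine), blue marks have one, grey marks are H3K27me3, and narrow peaks are drawn at a minimum width. The WT limb H3K27ac row holds 15 peaks and the Shh-/- row 5, with none near the start.

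In limb, H3K27ac was called at the Osr2 start in WT alone. A WT peak lay over the start at chr15:35296050-35296349, at rank 42.2% of its list, with a largest log2 ratio to input of 3.25 within the list. A stronger peak lay just upstream at chr15:35295300-35295849, 550 bp long and at rank 20.4%. A weak peak of 100 bp lay in the first intron at rank 91.3%. The nearest Shh-/- H3K27ac peak lay 16001 bp from these 3 peaks, and none overlapped the Osr2 body, of which WT peaks covered 4.88%.

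The other WT calls without a Shh-/- counterpart were distal and intergenic or in an intron of Gm33497, a long noncoding RNA gene upstream. A pair of WT peaks lay 19.5 and 19.2 kb upstream, at ranks 51.9% and 49.1%; the latter is the first sequence above. Single peaks lay 23.8 kb upstream (rank 61.3%) and 12.5 kb upstream (rank 86.8%). A pair lay 89.0 and 88.5 kb upstream at ranks 84.2% and 79.3%. The far upstream pair was weak, and a Shh-/- peak was called next to it at chr15:35207850-35208049, with no overlap.

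Downstream, a cluster of 4 WT peaks lay between 62.6 and 64.8 kb from the Osr2 start, between Osr2 and Vps13b. The longest, at chr15:35359750-35360449, ranked at 34.7%, and the other 3 ranked at 50.7%, 62.8% and 90.4%. No Shh-/- peak was called in the cluster. Over the 13 WT peaks without counterpart, the median rank was 61.3% and 4 stood in the better-ranked 50% of the list. Unshared peaks of the whole WT list had a median rank of 68.0%, with 25.7% in the better-ranked 50%, so most of the unshared Osr2 calls were, like unshared calls in general, weak peaks of their list. In the better-ranked 50% of each list alone, 5 WT and 4 Shh-/- peaks remained in the window, so the excess of WT calls at Osr2 lay mainly in weaker peaks.

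The 2 regions called in both genotypes were the Vps13b start and a site 17.5 kb downstream of the Osr2 start in an intron of BC048602. At Vps13b the WT peak of 800 bp ranked at 13.9% and the Shh-/- peak of 500 bp at 18.0%. In the BC048602 intron the order was the other way: the WT peak of 150 bp ranked at 85.8% and the Shh-/- peak of 300 bp at 46.2%. A further Shh-/- peak without overlap lay next to that site at chr15:35312600-35312799 (rank 46.0%), and another, at chr15:35370800-35371099 (rank 39.0%), stopped 1 bp short of the WT Vps13b peak. The 3 unshared Shh-/- calls at Osr2 lay 51, 751 and 1 bp from the nearest WT peak. Counting peaks as far as 500 bp apart as shared left 20% of the Shh-/- peaks without a counterpart, against 20.95% of their list, so the excess over the list depended on the overlap asked for.

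H3K4me2 was called at the Osr2 start in both genotypes. The WT list held 11 peaks (5400 bp) in the window and the Shh-/- list 6 (3500 bp). Of the 11, 5 (45.5%, interval 21.3 to 72.0) had no Shh-/- overlap, against 25.7% of the WT list. Of the 6, 1 (16.7%, interval 3.01 to 56.4) had no WT overlap, against 22.5% of the Shh-/- list. The paper's own test of reads found nearly all H3K4me2 peaks unchanged between the genotypes. A missing overlap here is not a tested loss. The peak over the start was chr15:35295950-35297199 in WT limbs, at rank 16.1%, and chr15:35296000-35297399 in Shh-/- limbs, at rank 12.4%.

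A second H3K4me2 region lay upstream of the start in both genotypes. The WT peak began 2.9 kb upstream, was 1300 bp long and ranked at 33.4%, while the Shh-/- peak began 2.6 kb upstream, was 850 bp long and ranked at 2.2%, the best of the Osr2 H3K4me2 peaks. The WT-only H3K4me2 calls were 4 short peaks inside Osr2 and 1 peak 19.6 kb upstream, with ranks of 69.3% to 91.8%. The upstream one (chr15:35276450-35276599, rank 85.1%) stood beside the WT-only H3K27ac pair described above. A further region, 30.4 kb downstream in BC048602, was called in both, at rank 39.8% in WT and 80.3% in Shh-/- limbs.

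In Shh-/- limbs the Osr2 gene was covered by H3K27me3. One peak, chr15:35296700-35304549, was 7850 bp long and ranked 125 in its list, at 0.600%, and only 104 peaks of that list (0.499%) were at least as wide. It began 0.6 kb downstream of the start. A second peak of 2000 bp, at rank 6.75%, lay upstream from 2.3 to 0.3 kb before the start, and 2 short peaks, with false discovery rates of 0.231 and 0.0724, flanked these. The list reached a false discovery rate of 0.255, with 52.8% of its peaks at 0.05 or more, and below 0.05 it kept 2 of the 4 Osr2 peaks, the wide ones. Merged within 1 kb the 4 formed 1 domain, and 91.7% of the Osr2 body lay under H3K27me3 peaks. The strongest WT H3K27ac peak near the start (chr15:35295300-35295849) was the 1 of 13 WT-only peaks that overlapped H3K27me3 in Shh-/- limbs, a share of 7.69% against 0.690% of the unshared peaks of the WT list. The mark was measured in Shh-/- limbs alone here, so its state at Osr2 in WT limbs is not analysed.

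**Figure D2:**
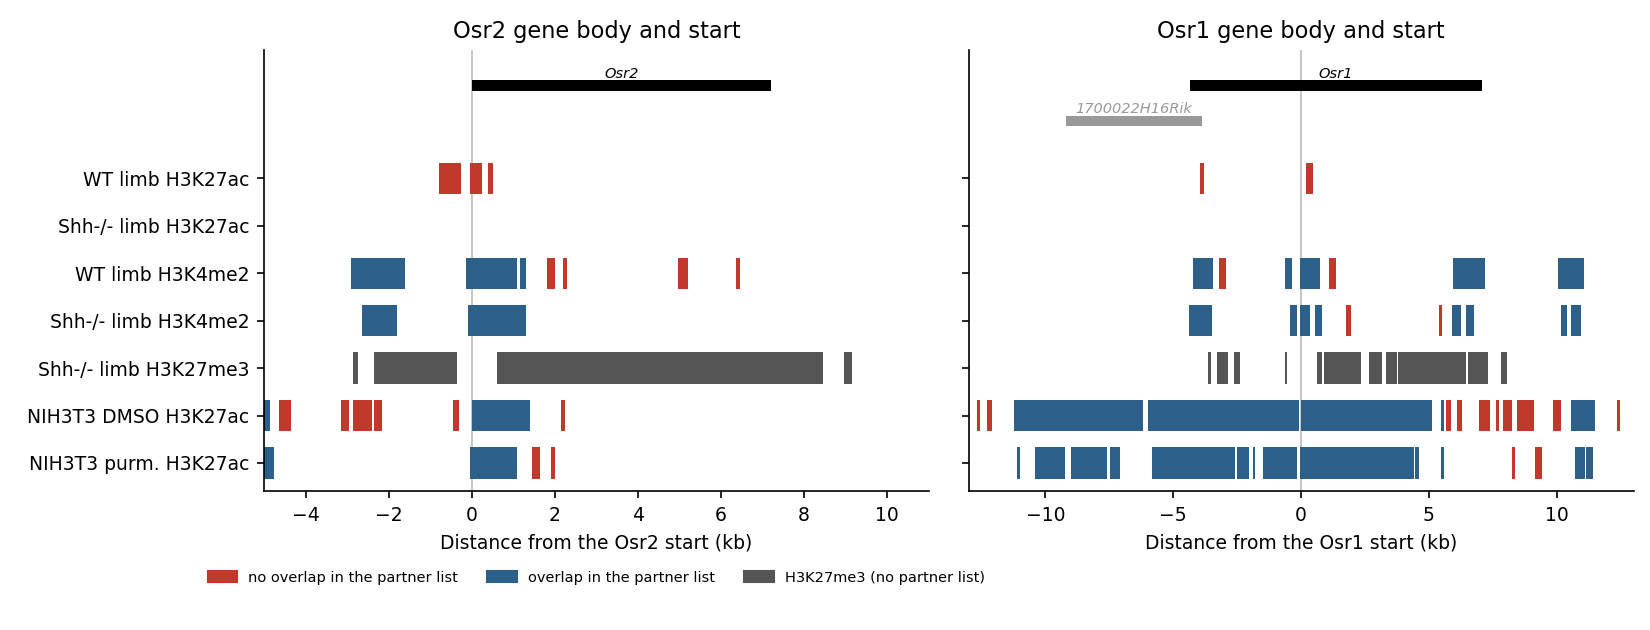
Peaks within a few kb of the Osr2 start (left) and the Osr1 start (right), 7 lists in rows, distance from the start in kb, colours as in the map of the Osr2 window. At the Osr2 start H3K4me2 was called in both genotypes and H3K27ac in WT limbs and, over it or 2 bp downstream, in both NIH3T3 lists, but not in the Shh-/- list, whose H3K27me3 covered 91.7% of the gene body.

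In NIH3T3 cells the Osr2 window carried more H3K27ac calls without the agonist than with it. The DMSO list held 42 peaks that covered 15450 bp and the purmorphamine list held 28 peaks that covered 9550 bp, a ratio of 0.618 for purmorphamine over DMSO where the whole lists gave 0.938. Of the 42 DMSO peaks, 28 (66.7%, interval 51.6 to 79.0) overlapped no purmorphamine peak, against 41.1% of the list. Of the 28 purmorphamine peaks, 12 (42.9%, interval 26.5 to 60.9) overlapped no DMSO peak, against 36.5% of the list. Of 18296 protein-coding loci with an NIH3T3 peak, 50.7% had fewer purmorphamine than DMSO peaks and 2.78% had a deficit of at least 14 as at Osr2. The shares depended on how near a peak had to lie: with peaks as far as 500 bp apart taken as shared they were 38.1% for DMSO and 14.3% for purmorphamine, against 26.9% and 24.5% over the lists. In domains of peaks within 1 kb the counts were nearer, 18 in DMSO and 14 in purmorphamine, and in the better-ranked 50% of each list they were 16 and 6.

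H3K27ac was called at the Osr2 start in both NIH3T3 lists. The DMSO peak, chr15:35296100-35297499, began 2 bp downstream of the start and ranked at 16.4%, and the purmorphamine peak, chr15:35296050-35297199, lay over the start and ranked at 33.4%. Other well-ranked DMSO peaks lay 9.1 kb upstream (17.8%; the purmorphamine peak there ranked at 25.3%) and 16.2 kb downstream in BC048602 (18.3%; purmorphamine 28.9%). The Vps13b start gave the best-ranked peak of both lists in the window, at 3.22% in DMSO and 3.33% in purmorphamine. The DMSO-only calls were mostly weak, with a median rank of 79.5%, and 5 of 28 stood in the better-ranked 50% of the list, where all unshared DMSO peaks had a median rank of 71.3% and 20.5% in that range; the best of them, at chr15:35291450-35291749, ranked at 37.4%.

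The regions called in both NIH3T3 lists were compared by their rank, each within its own list. Of the 14 such regions at Osr2, 12 ranked better in DMSO than in purmorphamine, with median ranks of 35.6% and 57.8%. Of the 44301 regions common to both lists over the genome, 53.4% ranked better in DMSO. At Osr2, 9 of the 14 were wider in DMSO, against 53.1% over the genome. The Vps13b start was nearly level, and the 2 regions ranked better in purmorphamine lay 5.2 kb upstream (84.9% in DMSO, 57.2% in purmorphamine) and in BC048602 (85.5% and 80.9%). The regions share libraries and neighbouring chromatin, and the rule had already used the NIH3T3 lists, so these counts are a description of the lists and no test.

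**Figure D3:**
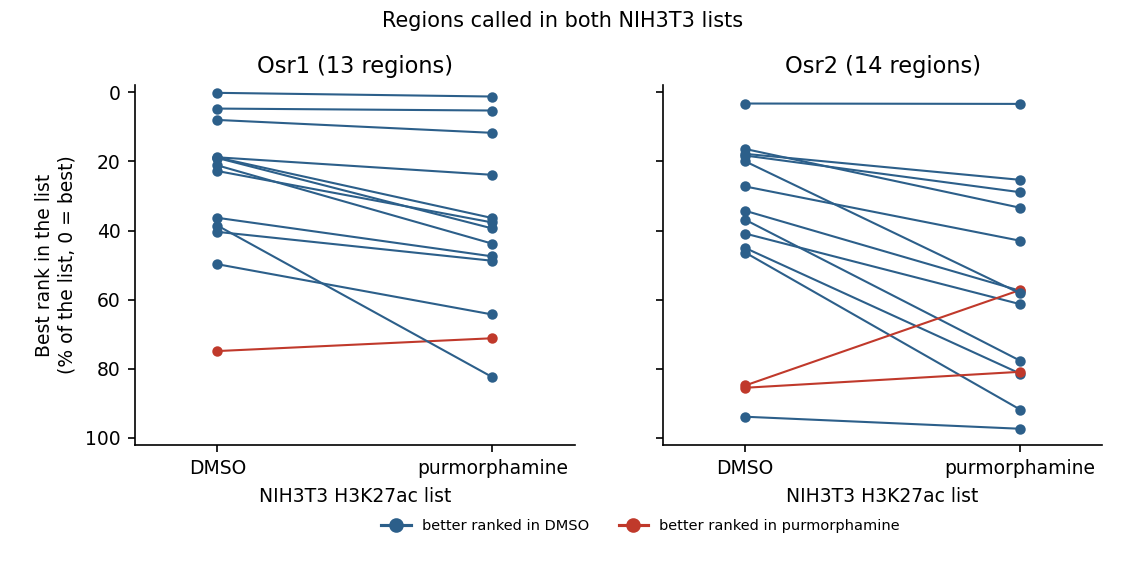
Best rank, as a percentage of the list with 0 as the strongest, of each region called in both NIH3T3 lists, joined between DMSO and purmorphamine, for Osr1 (13 regions, left) and Osr2 (14 regions, right). Blue lines rank better in DMSO, 12 of 13 and 12 of 14, and red lines rank better in purmorphamine.

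The Osr2 regions called in limb were also called in NIH3T3 cells. H3K27ac peaks of the 4 lists, merged within 1 kb, formed 20 regions in the Osr2 window. Of these, 8 were called in limb and all 8 also in NIH3T3 cells; the other 12 were called in NIH3T3 cells alone. Over the genome, 44.5% of 31805 such regions with a limb call held an NIH3T3 call. Of the 8, 3 were called in both limb genotypes and 5 in WT but not in Shh-/- limbs. These 5 regions, over the start and 23.8, 19.8, 12.8 and, downstream, 61.1 to 64.9 kb away, each held a DMSO call, and 4 of them also held a purmorphamine call. The exception was the region 23.8 kb upstream, called in DMSO cells alone. Over the genome, 23.6% of 8361 regions called in WT but not in Shh-/- limbs held a DMSO call and 20.7% held both. At 23.8 kb upstream and in the downstream cluster the limb and NIH3T3 calls were neighbours within a merged region, and no WT peak there overlapped an NIH3T3 peak.

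Peak by peak the picture was narrower. Of the 13 WT-only limb peaks at Osr2, 7 (53.8%) overlapped a DMSO peak and 5 (38.5%) a purmorphamine peak, against 24.2% and 24.5% of the unshared peaks of the WT list. All 5 Shh-/- peaks overlapped a DMSO peak, against 40.4% of the Shh-/- list. The rule had used these H3K27ac lists, so the overlaps are a description and no test. Thus the WT limb, where Shh is present, and the DMSO cells, where no agonist was added, each had the larger number of H3K27ac calls at Osr2 within its own pair of lists. More WT than Shh-/- peaks together with fewer purmorphamine than DMSO peaks was found at 4602 of 17463 loci with H3K27ac in both systems (26.4%). The difference between the limb and NIH3T3 contrasts was not tested, since neither has replicate lists.

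Osr1 had few limb H3K27ac calls in either genotype. The WT list held 3 peaks (800 bp) and the Shh-/- list 3 peaks (450 bp) in its window, and 69.3% and 65.2% of protein-coding loci had at least as many. Of the 3 WT peaks, 2 (66.7%, interval 20.8 to 93.9) overlapped no Shh-/- peak, and the share was the same for the Shh-/- peaks, so shares of this size say little against the 48.5% and 38.4% of the lists. A WT peak of 250 bp lay in an exon just downstream of the start at chr12:9574650-9574899 (rank 48.3%), and another of 150 bp at chr12:9570500-9570649 (rank 35.7%), over the start of the divergent noncoding gene 1700022H16Rik. No Shh-/- peak was called within the Osr1 body, of which WT peaks covered 3.51%.

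The region called in both genotypes lay 38.0 kb downstream of the Osr1 start, in intergenic DNA. The WT peak, chr12:9612450-9612849, was the best ranked of the window at 15.8%, while the Shh-/- peak inside it, chr12:9612700-9612849, ranked at 69.2%. The other 2 Shh-/- peaks lay just beyond it, at ranks of 87.9% and 71.5%. This was the one Osr1 region called in limb and not in NIH3T3 cells. The 3 limb calls of each genotype therefore differed in place: 2 of 3 WT calls were near the gene start, and all 3 Shh-/- calls were at the distal region.

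**Figure D4:**
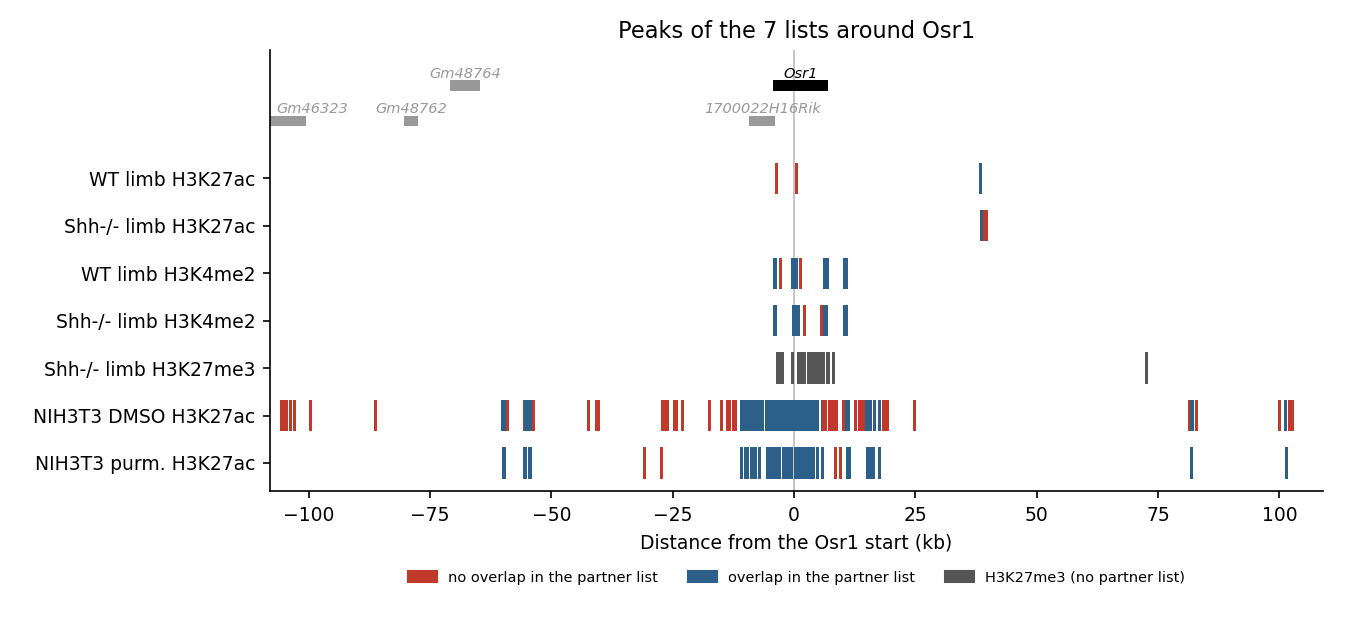
Peaks of the 7 lists (rows) against the distance from the Osr1 start in kb, with the colours of the map of the Osr2 window; narrow peaks are drawn at a minimum width. Limb H3K27ac rows hold 3 peaks each, H3K27me3 lies over the gene, and the DMSO row (56 peaks) is denser than the purmorphamine row (28 peaks).

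At Osr1, 5 H3K4me2 regions were called in both genotypes. The WT list held 7 peaks (4650 bp) and the Shh-/- list 10 (3450 bp), both in 4 domains of merged peaks. In WT limbs 2 of 7 (28.6%, interval 8.22 to 64.1) and in Shh-/- limbs 2 of 10 (20%, interval 5.67 to 51.0) had no overlap, against the 25.7% and 22.5% of the lists. The peak over the RefSeq start ranked at 52.3% in WT and 54.7% in Shh-/- limbs. The better-ranked H3K4me2 peaks in WT limbs were instead 10.1 kb downstream (30.2%) and over the 1700022H16Rik start (33.8%); in Shh-/- limbs the best lay in an exon 5.9 kb downstream of the start (22.2%).

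H3K27me3 in Shh-/- limbs covered 58.9% of the Osr1 body. The Osr1 window held 12 peaks of the mark where the median protein-coding locus had 1, and 4.10% of loci had at least as many. Of the 12, 11 lay in and around the gene, 1 lay 72.4 kb downstream, and 8 had a false discovery rate under 0.05. The widest, chr12:9578250-9580899, was 2650 bp long and ranked 776, at 3.72%. The mark was thus called in more and mostly shorter peaks at Osr1 than at Osr2, with a median length of 350 bp against 1100 bp. Merging within 1 kb left 4 domains at Osr1 against 1 at Osr2. Over the whole windows the H3K27me3 peaks covered 7300 bp at Osr1 and 10150 bp at Osr2.

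In NIH3T3 cells Osr1 carried some of the strongest and widest H3K27ac peaks of the lists. In DMSO cells the peak chr12:9574450-9579549, beginning 8 bp downstream of the start and 5100 bp long, ranked 115 of the list (0.126%). A peak of 5900 bp directly upstream ranked at 4.68%, and only 375 peaks of the DMSO list (0.412%) were at least as wide. Another, 5050 bp long, lay over 1700022H16Rik at rank 7.98%. Together the DMSO peaks covered 87.7% of the gene body.

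With purmorphamine the same stretch was called in more pieces. The peak over the start, chr12:9574400-9578849, was 4450 bp long and ranked at 1.20%. The next best peaks began 5.8 kb upstream (rank 5.25%, 3250 bp long, with a largest log2 ratio to input of 4.54 against 4.43 for the 5900 bp DMSO peak) and 10.4 kb upstream (rank 11.7%, 1150 bp). Purmorphamine peaks covered 73.6% of the gene body.

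Over the window the DMSO list held 56 Osr1 peaks (34750 bp) and the purmorphamine list 28 (18350 bp), a ratio in base pairs of 0.528. Of the 56, 42 (75%, interval 62.3 to 84.5) overlapped no purmorphamine peak, against 41.1% of the list. Of the 28, 4 (14.3%, interval 5.70 to 31.5) overlapped no DMSO peak, against 36.5%. A deficit of at least 28 purmorphamine peaks, as here, was found at 0.454% of loci. With peaks as far as 500 bp apart taken as shared, the shares were 51.8% and 3.57%, and merging within 1 kb left 15 DMSO and 11 purmorphamine domains. The widest DMSO-only call (1600 bp, rank 10.8%) was the leftmost peak of the window, 105.9 kb upstream of the Osr1 start in an intron of Gm46323, and the calls around it were DMSO-only as well.

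Regions called in both lists ranked better in DMSO at 12 of 13 Osr1 sites, with median ranks of 21.1% and 39.4%, and were wider in DMSO at 12 of 13. The exception in rank was a short region inside the gene, at 74.9% in DMSO and 71.2% in purmorphamine. H3K27ac peaks merged within 1 kb formed 17 regions at Osr1. Of these, 16 were called in NIH3T3 cells, 6 in both treatments, 9 in DMSO alone and 1 in purmorphamine alone. At Osr2 the same numbers were 11 in both, 7 in DMSO alone and 2 in purmorphamine alone.

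**Figure D5:**
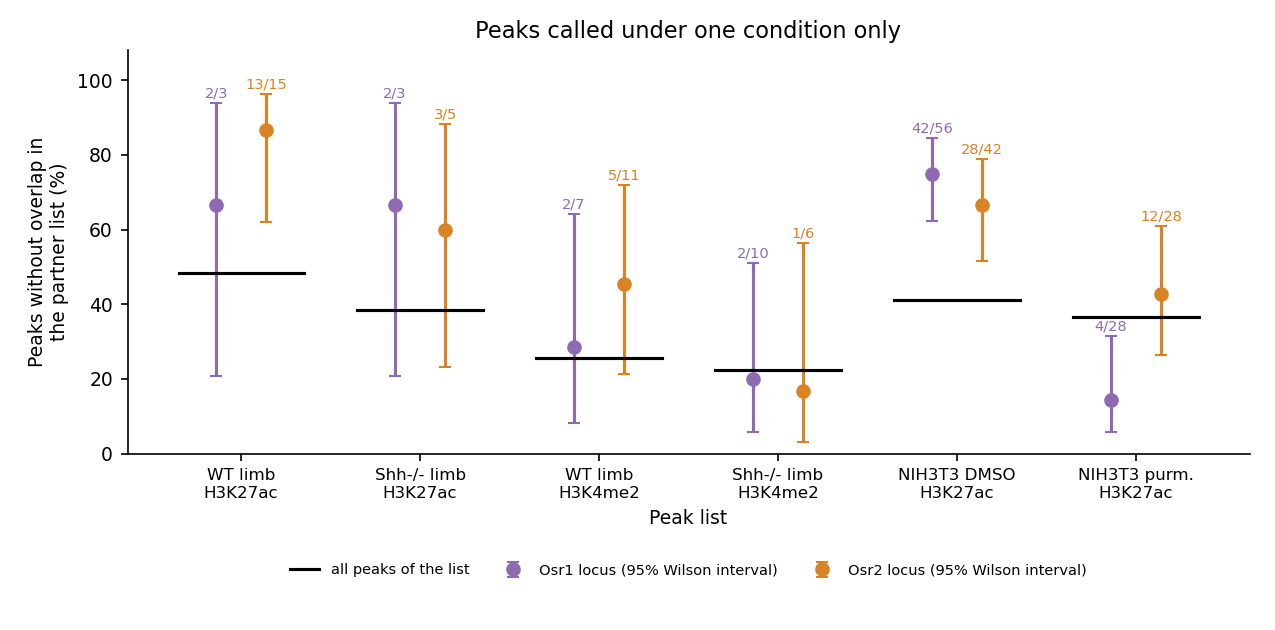
Percentage of peaks with no overlapping peak in the partner list (vertical axis) for the Osr1 (purple) and Osr2 (orange) windows in 6 lists, with 95% Wilson intervals for counting error and the counts printed; black bars give the share over all peaks of the list. The points at Osr2 in WT limb H3K27ac and at both genes in DMSO stand well above the bar, and the Osr1 point in purmorphamine stands below it; the genes were chosen from these lists, so the intervals are no test.

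Set side by side, both genes had fewer purmorphamine than DMSO calls, and Osr2 but not Osr1 had more WT than Shh-/- limb H3K27ac calls. WT minus Shh-/- was 10 peaks at Osr2 and 0 at Osr1, but in the better-ranked 50% of each list it was 1 at Osr2 and 3 at Osr1, so the order of the genes turned with that limit. For H3K4me2 the difference was 5 at Osr2 and -3 at Osr1, and 2 and 0 in merged domains. Both genes carried H3K4me2 and H3K27me3 in Shh-/- limbs, where neither had an H3K27ac call over its start. In WT limbs only Osr2 had such a call, and the nearest WT peak at Osr1 began 208 bp downstream of the start. H3K27me3 peaks from Shh-/- limbs overlapped DMSO H3K27ac peaks from NIH3T3 cells in 11 of 12 cases at Osr1 and 3 of 4 at Osr2. The share over the H3K27me3 list was 6.26%. With purmorphamine peaks the counts were 9 of 12 and 1 of 4, against 6.55%. The rule had used the NIH3T3 lists, and DMSO peaks covered 87.7% of the Osr1 body. Neighbouring H3K27me3 peaks are also not independent, so these overlaps are a description and no test.

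The GLI motif GACCACCCA, searched on both strands as exact letters, was absent from the Osr2 window. In the Osr1 window it occurred at 2 places. One, chr12:9571191-9571199 on the plus strand, lay 3251 bp upstream of the RefSeq start under an H3K27me3 peak, a DMSO peak and a purmorphamine peak, and is the one printed above. The other, chr12:9553106-9553114 on the minus strand, lay 21.3 kb upstream under no peak. Over whole lists an exact match was rare, in 0.401% of WT limb H3K27ac peaks and 0.725% of purmorphamine peaks.

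With 1 mismatch allowed, a search added after the exact one had been seen, 1 of 15 WT limb H3K27ac peaks at Osr2 (6.67%) held a match, near the 5.30% of WT peaks of the same widths. It was the first-intron peak printed above, with the substitution C3G counted from 1 at the motif's 5′ end, at chr15:35296521-35296529 on the minus strand. None of the 3 WT peaks at Osr1 held one. A match or its absence describes letters in these windows and says nothing of binding.

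Genes of 2 lists were counted in the same windows for context. Among 22 Hedgehog targets of the limb, a list chosen with limb results known, 18 had more WT than Shh-/- H3K27ac peaks. Of the 22, 7 had fewer purmorphamine than DMSO peaks, and 6 (27.3%) had both, as Osr2 did. The list includes Hoxd10, Hoxd11, Hoxd12 and Hoxd13, whose counts were nearly the same in every list, so the 22 are not all separate loci. Cyp1b1, a cytochrome P450 enzyme, had 18 WT and 4 Shh-/- peaks with 52 DMSO and 36 purmorphamine peaks, and Grem1, a secreted BMP antagonist, had 18 and 9 with 62 and 50. The pathway factor Gli1 had 15 and 13 with 10 and 17. The NIH3T3 counts at Osr1 and Osr2 thus ran in the direction of Cyp1b1 and Grem1 and opposite to that of Gli1.

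Among 18 genes that act with odd-skipped factors in joints, palate or kidney, 10 had more WT than Shh-/- peaks, 6 had fewer purmorphamine than DMSO peaks, and 4 (22.2%) had both. The other way, 7 of the 18 had fewer WT than Shh-/- peaks and 4 had more purmorphamine than DMSO peaks. Among the genes with both, Gdf5, a joint growth factor, had 12 WT and 11 Shh-/- peaks with 22 DMSO and 10 purmorphamine peaks. Sox9, the cartilage regulator and another of them, had 11 and 6 with 28 and 27. Wnt9a was opposite in both, with 6 and 9 and with 35 and 55. Over all 21911 protein-coding loci, 45.2% had more WT peaks, 42.3% had fewer purmorphamine peaks and 21% had both, so the share with both was near that background in each list. H3K27me3 was called at 21 of 22 Hedgehog targets and 17 of 18 odd-skipped context genes, against 69.8% of all loci. Median differences of purmorphamine minus DMSO were 0 in both lists and over all loci.

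The loci most like each gene were found from the distance between their peak counts in the 7 lists, as log2 of count plus 1. For Osr2 they were Ccl17, Dst, Coq9, Dok4 and Polr2c, at distances of 0.718 to 0.929. Of these, Coq9, Dok4 and Polr2c had the same counts in all 7 lists. Loci whose windows overlap each other were not left out, so the loci named for either gene need not be separate regions. For Osr1 they were Nup93, Pik3cb, Pde10a, Mt1 and Kcnab2, at 0.835 to 1.01. Osr1 and Osr2 lay 2.68 apart, so each had over 1000 loci closer to it than the other, with ranks of 1299 and 4040.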

How the data were processed

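Histone-mark ChIP-seq was performed on 24 libraries (14 immunoprecipitations, 10 inputs) in 14 groups, 2 libraries per immunoprecipitated group. The authors called peaks with CisGenome on mm10 against input, both replicates together. Limb H3K27ac and H3K4me2 had 1 input per condition, and H3K27me3 and NIH3T3 had 2. The processing notes name Bowtie2 2.2.5 and limma. Each deposited list gives a peak's false discovery rate (a q-value), its score against input (at least 3), its largest log2 ratio to input and −log10 of its Poisson p-value, capped at 100. Because the lists pool replicates, the deposited values carry no replicate error, and the authors' scores depend on each list's depth and input, so ranks were used within lists.

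Peaks were intersected with the GENCODE M21 gene records plus 100 kb. Peaks sharing at least 1 bp were counted as shared, and domains merged peaks within 1 kb. Coordinates are as deposited, read as 1-based, and peak edges fall on 50 bp bins, so a printed sequence could be shifted by 1 base. Named peaks were the 3 best ranked of each list, those over a start, the widest H3K27me3 peak, peaks with a motif, and WT-only peaks in the better-ranked 50%; some others were chosen after their values were seen. Members and gene lists were chosen with earlier results of these data known. Scripts used Python 3.11.15, numpy 2.4.6, pandas 2.3.3 and scipy 1.17.1, and only their overlap functions were tested on simulated peaks. Alternatives changed the flank (20 or 50 kb), overlap, gap, rank, false discovery rate and unit. There were 0 unmapped columns. Values of some single genes are not reported here.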

Additional observations from a re-analysis of the deposited data

Results flagged for a closer look

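The limb and NIH3T3 contrasts at Osr2 pointed in opposite directions in the number of H3K27ac peaks, with the Hedgehog-active list minus the inactive list at 10 in limb (WT minus Shh-/-) and -14 in NIH3T3 cells (purmorphamine minus DMSO). The difference between the contrasts was not tested, because each list was called once on pooled replicates. The limb lists and the NIH3T3 lists came from different antibodies, cell numbers and list sizes, and the part of these in the result was not tested.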

How the results depend on the processing

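No paired analysis was possible because every list was called once on both replicates together, and for the same reason no replicate could be left out. Of 98 alternative values of the 10 shares of peaks without overlap, 81 stayed within the Wilson interval and 17 did not. Of the alternative values of 14 counts, 50 stayed within 1.5 times the count and 34 did not, and the cause was not tested. Some alternatives could change nothing. No NIH3T3 peak had a false discovery rate above 0.00268, and Osr1 had no other protein-coding start in its window to leave out. Intervals for few peaks were wide, 20.8 to 93.9 for 2 of 3 Osr1 WT H3K27ac peaks. The number that stayed within them is therefore no measure of stability. Against the share over the whole list at the same setting, the Osr2 purmorphamine share changed from above to below with the 500 bp distance, merging and the better-ranked 50%, the Osr2 Shh-/- H3K27ac share with the 500 bp distance, the Osr1 Shh-/- H3K27ac share with merging, and the Osr1 WT H3K4me2 share with both the distance and merging. The share of WT limb H3K27ac peaks without overlap at Osr2 stayed between 75% and 92.9%. When peaks as far as 500 bp apart were taken as shared, the shares were 20% for Shh-/- H3K27ac and 38.1% for DMSO and 14.3% for purmorphamine at Osr2, and 0% for WT H3K4me2, 51.8% for DMSO and 3.57% for purmorphamine at Osr1, against 20.95%, 26.9% and 24.5% over the Shh-/- H3K27ac, DMSO and purmorphamine lists and 12.2% over WT H3K4me2. After merging within 1 kb they were 44.4% for DMSO (8 of 18, list 29.0%) and 21.4% for purmorphamine (3 of 14, list 26.99%) at Osr2. At Osr1 they were 0% for Shh-/- H3K27ac (0 of 1, list 31.5%) and 0% for WT H3K4me2 (0 of 4, list 18.5%). With a cover of at least 50% the Osr1 WT H3K27ac share was 100% (3 of 3, list 58.9%). In the better-ranked 50% of each list it was 100% (3 of 3, list 40.3%). There the Osr2 purmorphamine share was 16.7% (1 of 6, list 26.8%) and the Osr1 DMSO share 56.5% (13 of 23, list 30.4%). A flank of 20 kb gave 100% for Osr1 WT H3K27ac (2 of 2). Shares of so few peaks, and their side of the list share, say little. In base pairs, Osr1 gave 49.9% for DMSO (list 34.0%) and 5.18% for purmorphamine (29.6%). The Osr1 Shh-/- H3K27ac share was not run for the better-ranked 50% or the 20 kb flank, where no peak was left. WT exceeded Shh-/- H3K27ac counts at Osr2 under every alternative, by 1 to 11 peaks, with the smallest margin (5 against 4) in the better-ranked 50%, and purmorphamine minus DMSO stayed between -14 and -4. At Osr1, WT minus Shh-/- H3K27ac counts ranged from 0 to 3 and purmorphamine minus DMSO from -28 to -4. Peak counts and shares depend on how a caller divides broad regions, and the depth of single libraries limits which weak regions were called.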

Other observations

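The H3K27me3 peaks of Shh-/- limbs at Osr1 overlapped WT limb H3K4me2 peaks in 7 of 12 cases and those at Osr2 in 3 of 4, against 21.1% of the H3K27me3 list. With the H3K4me2 peaks of Shh-/- limbs, the same genotype, the counts were 5 of 12 and 2 of 4, against 20.1%. Each overlap is between lists from whole limb buds and separate libraries.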
